A study of Mus musculus with 2 samples.

Results

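The genes described here are those that encode the chains of collagens in the mouse cornea. They were taken as every gene whose symbol has the form Col, number, a, number, with Col17a1 of the epithelial hemidesmosome left out. This gave 43 of the 27998 genes in the count tables. The cells came from the cornea and limbal rim of 2 female C57BL/6 littermates aged 28 days, a wild type and a mouse labelled Beclin1 +/-, heterozygous for the autophagy gene Becn1. The lens, retina, iris and trabecular network had been taken out and most of the conjunctiva cut away, and the rims were digested with collagenase A and then trypsin before 10x Genomics single-cell RNA sequencing. Each genotype was 1 animal and 1 library, so genotype, animal and library cannot be told apart, no test was possible and every interval below is a 95% interval for counting error only. The labels do not say how the Becn1 allele was made or in which cells it is altered.

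The chains were followed over 5 cell classes set by marker levels in CPM, the UMIs of a gene scaled to a common total of UMIs in the cell or class. UMIs are the molecular tags that count RNA molecules. Stromal cells had at least 5000 CPM of Dcn (decorin) and were split at 1000 CPM of Kera (keratocan), both proteoglycans of the corneal stroma. Cells past both limits are called Kera-high stroma and the other stromal cells Kera-low stroma. Corneal basal epithelial cells had at least 2000 CPM of Krt14 and 8000 CPM of Krt12. Limbal epithelial cells had at least 2000 CPM of Krt14 and 500 CPM of Gpha2. Corneal endothelial cells had at least 5 UMIs of Slc4a11 and 1000 CPM of Car3. The classes held 406 and 956 Kera-high stromal, 146 and 364 Kera-low stromal, 11 and 34 endothelial, 230 and 363 limbal and 809 and 1441 corneal basal cells. In each pair of values here and below the wild type is given before the heterozygote.

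Collagens are triple helices of 3 chains, and the chains fall into families by what they build. Collagen I forms the fibrils of the corneal stroma, collagen V joins them and is known to limit fibril diameter, and fibril-associated collagens such as XII and XIV sit on the fibril surface. Collagen VI builds beaded filaments between fibrils, collagen IV the network of basement membranes, and collagen VIII the lattice of Descemet's membrane, which the corneal endothelium lays down. Collagen VII forms the anchoring fibrils that fasten the epithelial basement membrane to the stroma. Keratocytes are the resident cells of the stroma and are known for keratocan and lumican.

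The collagen IV chains are encoded as 3 pairs of neighbouring genes that point away from each other. In the GENCODE annotation of mm10, Col4a4 (ENSMUSG00000067158) lies on the minus strand at chr1:82448423-82586849 and Col4a3 (ENSMUSG00000079465) on the plus strand at chr1:82586921-82722059, with 71 bases between their starts. Col4a1 (chr8:11198423-11312826, minus strand) and Col4a2 (chr8:11312805-11449287, plus strand) overlap by 22 bases at their starts. Col4a6 (chrX:141165403-141474076, minus strand) and Col4a5 (chrX:141475385-141689234, plus strand) have 1308 bases between them. Col8a1 (ENSMUSG00000068196) lies at chr16:57624258-57754737 on the minus strand and Col8a2 (ENSMUSG00000056174) at chr4:126286793-126314330 on the plus strand, so these partners do not share a start region. The sequences below are shown because these pairs carry the endothelial pattern described further on. They are the whole gap between Col4a4 and Col4a3, and the 250 bases before the RefSeq start of each collagen VIII gene, on GRCm38.p6. RefSeq promoters were matched by symbol for 34 of the 43 chains. The gap is chr1:82586850-82586920, printed 5′ to 3′ on the minus strand in the direction of Col4a4. The collagen VIII windows are chr16:57754738-57754987 on the minus strand and chr4:126286544-126286793 on the plus strand. The Col8a2 window thus ends on the GENCODE start base of Col8a2 given above. Capitals mark the GC box motif GGGCGG, or CCGCCC where it lies on the opposite strand.
Col4a4 to Col4a3 gap: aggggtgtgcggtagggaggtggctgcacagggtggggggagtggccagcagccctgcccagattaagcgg
Col8a1: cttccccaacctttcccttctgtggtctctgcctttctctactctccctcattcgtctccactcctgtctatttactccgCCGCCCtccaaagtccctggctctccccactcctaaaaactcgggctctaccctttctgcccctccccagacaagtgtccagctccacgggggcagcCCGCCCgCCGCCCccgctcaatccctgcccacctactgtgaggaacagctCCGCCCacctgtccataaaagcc
Col8a2: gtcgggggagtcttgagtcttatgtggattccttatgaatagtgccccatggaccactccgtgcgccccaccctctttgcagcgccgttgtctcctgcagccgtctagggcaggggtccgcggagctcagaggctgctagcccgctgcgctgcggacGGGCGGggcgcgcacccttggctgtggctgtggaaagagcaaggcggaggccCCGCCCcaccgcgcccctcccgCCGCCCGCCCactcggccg
Both collagen VIII windows held 4 matches to GGGCGG on the 2 strands together, and in Col8a2 the last capitals are a pair of matches that overlap. GGGCGG was found in 32.7% of the 250-base windows before all 32817 promoter starts. The motifs CCAAT, present in 33.8% of those windows, and TATAA, present in 22.8%, had no match in either collagen VIII window. G and C made up 69.0% of the Col4a4 to Col4a3 gap, 60.8% of the Col8a1 window and 70% of the Col8a2 window. A match describes letters only and is not evidence that a factor binds there.

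The libraries held 2513 barcodes with 54913980 UMIs and 5155 barcodes with 74363359 UMIs, with medians of 16967 and 11571 UMIs per barcode, and 15 barcode sequences occurred in both. After removal of 51 and 213 likely doublets, 2462 and 4942 cells were left. Becn1 itself stood between 27.8 and 47.2 CPM in the 5 classes of the 2 libraries. It was higher in the heterozygote in Kera-high stroma, with 30.4 and 35.3 CPM, and nearly equal in corneal basal cells, with 39.6 and 39.5 CPM. It was lower in Kera-low stroma with 30.1 and 27.8 CPM and in limbal cells with 47.2 and 41.3 CPM. In endothelium it was lower too, with 45.1 and 29.3 CPM from 15 and 20 UMIs. The intervals of the 2 libraries overlapped in all 5 classes, so no direction is read from these Becn1 values. The part of Becn1 altered in this allele is not given in the labels, so these counts do not check the genotype. Marker lists were summed in each class to check its name. The 6 listed corneal endothelial markers, of which the class rule used Slc4a11 and Car3, summed to 12703 and 11678 CPM in the endothelial class against 254 and 274 CPM in Kera-high stroma. Blood vessel markers summed to 24.1 and 30.8 CPM in the endothelial class, with Tek and Cldn5 at 0 in both libraries and Cdh5 at 0 in the wild type. The 7 stromal markers, of which the class rule used Dcn and Kera, summed to 38968 and 38837 CPM in Kera-high stroma. Most of this was Dcn at 28427.5 and 28916 CPM and Kera at 4950 and 4402 CPM. Lum (lumican), which the rule did not use, stood at 5444 and 5390 CPM, and Ptgds was at 0 in the heterozygote. Corneal epithelial RNA was present in every non-epithelial class: the 7 epithelial markers summed to 3873 and 4666 CPM in Kera-high stroma, 3057 and 4056 CPM in Kera-low stroma and 2716 and 3006 CPM in endothelium. The 4 limbal basal markers, of which the class rule used Gpha2, summed to 8836 and 7899 CPM in limbal and 1243 and 1380 CPM in corneal basal cells. They also summed to 5810 and 6058 CPM in Kera-high stroma, so that list does not set limbal cells apart from stroma. The 3 conjunctival markers summed to 928 and 438 CPM in limbal and 133 and 179 CPM in basal cells. Cells near the Kera limit, within a factor of 2 of it, were 31 of 552 and 133 of 1320 stromal cells. Near the Krt12 limit by the same measure were 364 of 1110 and 796 of 1949 cells past the Krt14 limit. Of the cells past the Car3 limit, 5 of 16 and 8 of 46 had under 5 UMIs of Slc4a11. The Slc4a11 limit is in UMIs and was not adjusted for depth.

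Collagen chains took up 6.12% and 5.58% of all UMIs in Kera-high stroma, 4.01% and 3.19% in Kera-low stroma and 0.986% and 1.10% in endothelium. In limbal cells they took 0.0201% and 0.0246%, and in corneal basal cells 0.0201% and 0.0227%. Among single Kera-high cells the share had a 10th percentile of 4.18% and 3.64% and a 90th of 8.13% and 7.73%. Of the 43 chains, 24 reached 50 CPM in at least 1 class of 1 library. The level was highest in Kera-high stroma for 13 of these 24, in Kera-low stroma for 3, in endothelium for 8 and in epithelium for 0. Col13a1, at 58.5 CPM, was the lowest of the 24, and Col11a2, at 39.6 CPM, was the highest of the others. UMI counts were not divided by transcript length and the labels do not say which transcript end was read, so the order of different genes within a class is an order of UMIs, not of molecules per length. In these bulk sums per class, a shift in the mix of cells and a shift in RNA per cell cannot be told apart.

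**Figure D1:**
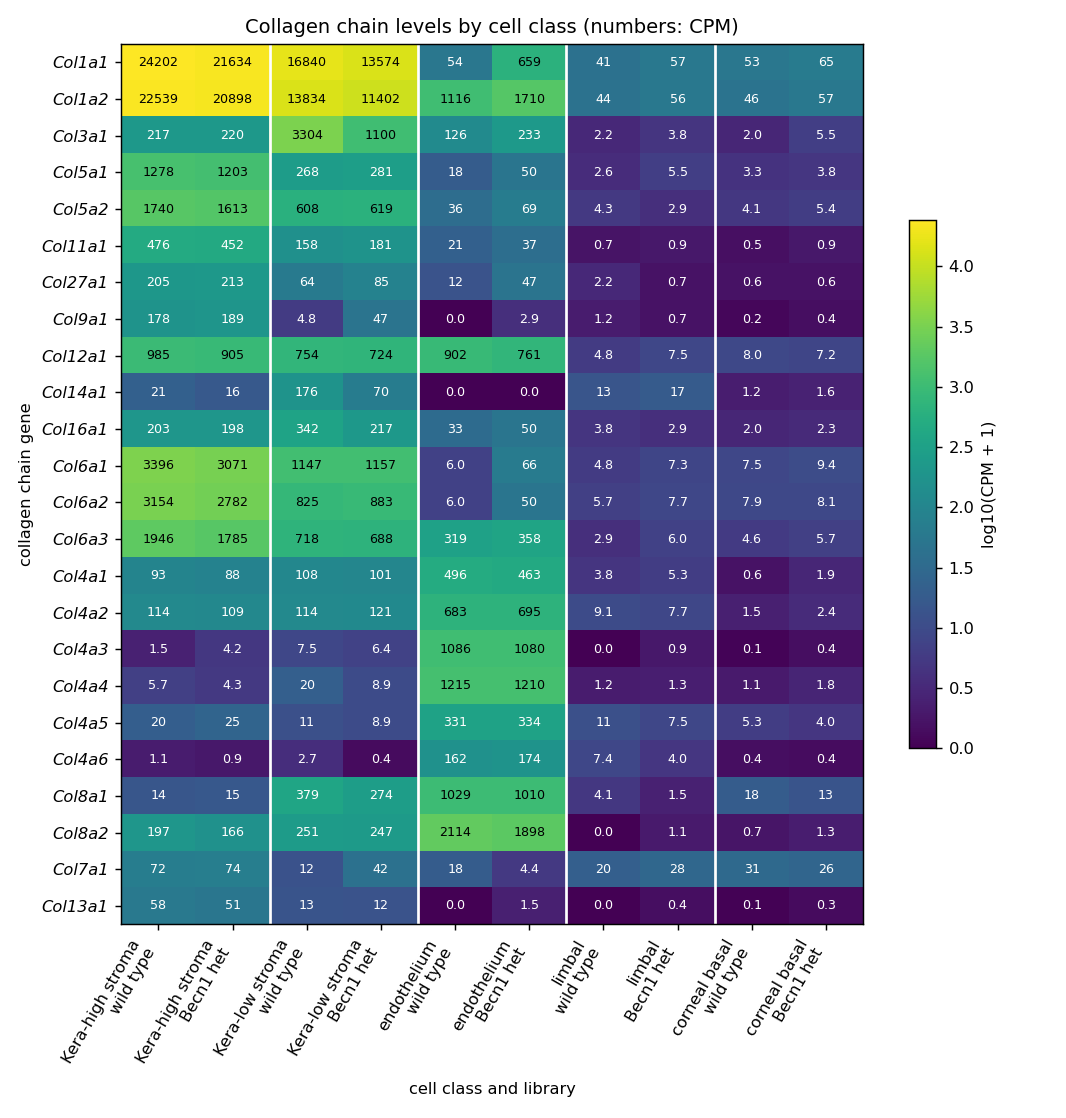
Level of each of the 24 named collagen chains (rows, ordered by kind) in the 5 cell classes of both libraries (columns), in CPM as printed in each cell of the map, with colour on a log10(CPM + 1) scale. Each value is 1 library's summed count, so there is no error bar. Fibril and filament chains are high in the stromal columns, such as Col1a1 at 24202 and 21634 CPM in Kera-high stroma. Collagen IV and VIII chains are high in the endothelial columns, such as Col4a3 at 1086 and 1080 CPM.

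Kera-high stromal cells carried mainly collagen I and collagen VI transcripts. Col1a1, the major chain of collagen I, stood at 24202 (interval 24069 to 24335) and 21634 (21536 to 21733) CPM. Its partner Col1a2 stood at 22539 and 20898 CPM, so 0.931 and 0.966 UMIs of Col1a2 were counted per UMI of Col1a1. Across cells thinned to 5000 UMIs each, the counts of the collagen I chains had a Spearman correlation of 0.76 over 406 cells and 0.78 over 956 cells, given as a description of cells that share a library. Fibril-forming chains as a group made up 82.9% and 83.0% of collagen UMIs, and beaded filament chains 13.9% and 13.7%. Among the other fibril-forming chains, Col5a2 stood at 1740 and 1613 CPM and Col5a1 at 1278 and 1203 CPM. Col11a1, whose product is known to join the same kind of fibril as collagen V, stood at 476 and 452 CPM. Col27a1 stood at 205 and 213 CPM and Col3a1, the chain of the fibrils of loose connective tissue, at only 217 and 220 CPM.

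The collagen VI chains in Kera-high stroma were Col6a1 at 3396 and 3071 CPM, Col6a2 at 3154 and 2782 CPM and Col6a3 at 1946 and 1785 CPM. Col6a3 stood at 0.573 and 0.581 UMIs per UMI of Col6a1, a ratio that differed little between the libraries. Fibril-associated chains made up 2.27% and 2.35% of collagen UMIs. Col12a1 led them with 985 and 905 CPM, followed by Col16a1 with 203 and 198 CPM. Col9a1, a chain of collagen IX best known from cartilage, stood at 178 (167 to 190) and 189 (180 to 198) CPM. Col9a1 was uneven between cells: its median cell had 69.0 and 0 CPM, while the 90th percentile was 530 and 542 CPM. It was found in 52.5% and 48.7% of Kera-high cells, and in 34.7% and 39.6% once each cell was thinned to 5000 UMIs. The thinned shares in corneal basal cells were 0% (interval up to 0.455%) and 0.139%, at unthinned medians of 17753 and 12053 UMIs against 12457 and 8501.5 in Kera-high stroma. Among lower chains, Col8a2 stood at 197 and 166 CPM, Col7a1 at 71.5 and 74.2 CPM and Col13a1, a transmembrane collagen, at 58.5 and 51.4 CPM. Of the collagen IV chains, Col4a1 at 92.6 and 88.3 CPM and Col4a2 at 114 and 109 CPM were the only ones above 25 CPM. Col4a5 stood at 19.7 and 24.6 CPM and Col4a6 at 1.14 and 0.934 CPM.

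Kera-low stromal cells differed from Kera-high cells in which collagens they carried, and most chains were lower. Of 21 chains with a mean of at least 20 CPM, 3 were past 1.5-fold higher in both libraries, where 11.2% of all 4721 genes were. They were Col8a1, Col3a1 and Col14a1. Past 1.5-fold lower in both libraries were 11 chains, where 5.44% of all genes were. The median log2 ratio of Kera-low over Kera-high stroma was −0.70 and −0.80 over the chains, against 0.07 and 0.11 over all genes. Col8a1 was under 20 CPM in Kera-high and Col13a1 in Kera-low stroma of both libraries. The filter thus fixed the direction in which these chains could count.

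Col8a1, a chain of the Descemet's membrane lattice, was raised most. It stood at 14.04 and 14.9 CPM in Kera-high stroma and at 379 (348 to 412) and 274 (255 to 294) CPM in Kera-low stroma, a log2 ratio of 4.74 (4.40 to 5.12) and 4.19 (3.92 to 4.48). Its partner Col8a2 moved far less, from 197 and 166 CPM to 251 and 247 CPM, a log2 ratio of 0.35 and 0.57 that did not pass 1.5-fold in either library. The UMIs of Col8a2 per UMI of Col8a1 were therefore 14.1 and 11.1 in Kera-high stroma and 0.664 and 0.904 in Kera-low stroma. Col3a1 stood at 3304 (3211 to 3399) and 1100 (1062 to 1140) CPM in Kera-low stroma, a log2 ratio of 3.93 (3.83 to 4.02) and 2.32 (2.24 to 2.41). With the class limits other than Kera doubled, the heterozygote ratio of Col3a1 was 1.71. Col14a1, a chain that coats fibrils, stood at 176 and 69.5 CPM against 20.7 and 15.5 CPM, a log2 ratio of 3.09 and 2.16.

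The chains that were lower in Kera-low stroma came from the fibril, filament, anchoring and transmembrane families. Col5a1 stood at 268 and 281 CPM, a log2 ratio of −2.25 and −2.10, and Col5a2 at 608 and 619 CPM, a log2 ratio of −1.52 and −1.38. The ratio of Col5a2 to Col5a1 was thus 1.36 and 1.34 in Kera-high and 2.27 and 2.20 in Kera-low stroma. All 3 main collagen VI chains were lower: Col6a1 at 1147 and 1157 CPM, Col6a2 at 825 and 883 CPM and Col6a3 at 718 and 688 CPM, with log2 ratios from −1.93 to −1.37. Col11a1 at 158 and 181 CPM and Col27a1 at 63.7 and 85.2 CPM had log2 ratios from −1.68 to −1.32. Col13a1 at 13.0 and 12.5 CPM had log2 ratios of −2.13 and −2.02. Col1a2, at 13834 and 11402 CPM, passed the limit with −0.70 and −0.87, while Col1a1, with 16840 and 13574 CPM and −0.52 and −0.67, passed it in the heterozygote only.

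For Col9a1 and Col7a1 the direction was the same in both libraries but the size was not. Col9a1 stood at 4.79 (1.93 to 9.88) CPM in wild-type and 46.7 (39.0 to 55.4) CPM in heterozygote Kera-low cells, a log2 ratio of −5.12 (−6.53 to −4.17) and −2.01 (−2.28 to −1.76). With the Kera limit at 2000 CPM the wild-type ratio of Col9a1 was −3.37. Col7a1 stood at 11.6 (6.78 to 18.6) and 42.4 (35.1 to 50.8) CPM, a log2 ratio of −2.58 and −0.80. With the Kera limit at 2000 CPM its ratios were −1.76 and −0.47, so the heterozygote no longer passed, and the wild-type ratio was −1.89 in cells thinned to 5000 UMIs. The chains that passed in neither direction were Col12a1 at 754 and 724 CPM (−0.39 and −0.32), Col4a1 at 108 and 101 CPM (0.22 and 0.19), Col4a2 at 114 and 121 CPM (0.00 and 0.16), Col8a2 and the low chain Col5a3. The other collagen IV chains were low here: Col4a4 at 19.9 and 8.91 CPM, Col4a5 at 11.0 and 8.91 CPM, Col4a3 at 7.53 and 6.42 CPM and Col4a6 at 2.74 and 0.356 CPM. Col16a1 at 342 and 217 CPM had log2 ratios of 0.76 and 0.13, past the limit in the wild type only.

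**Figure D2:**
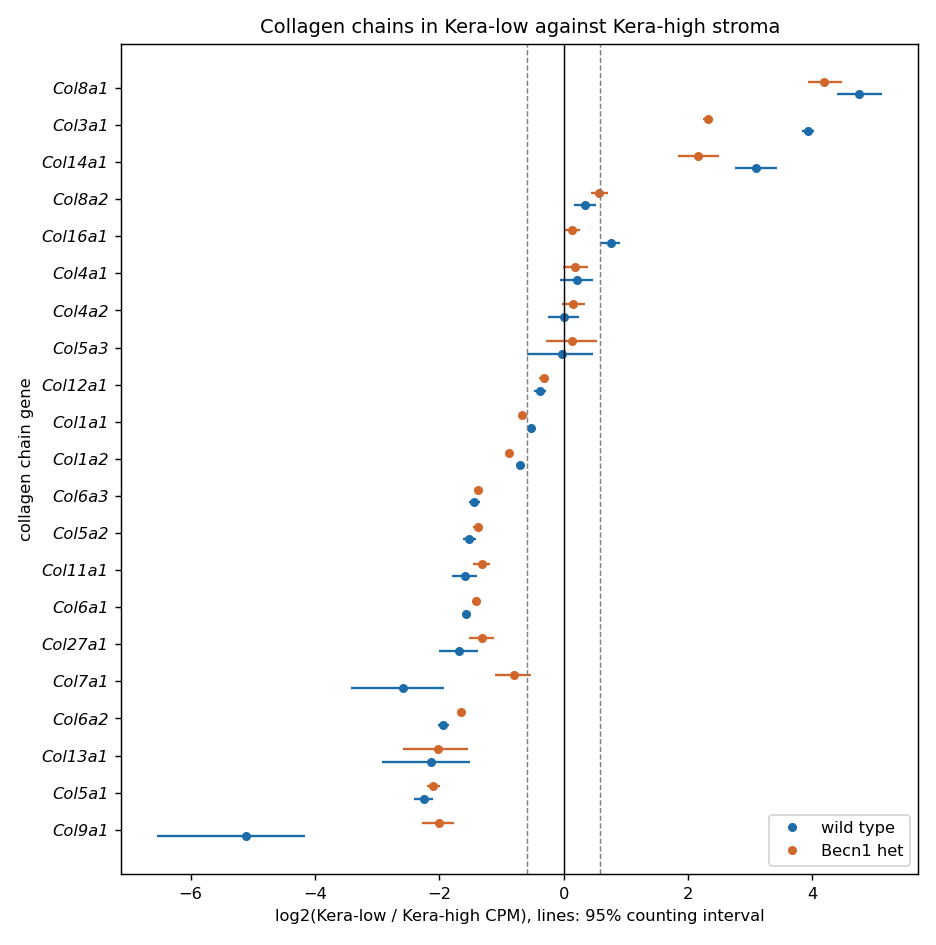
Log2 ratio of Kera-low over Kera-high stroma (horizontal axis) for each chain with a mean of at least 20 CPM (vertical axis), wild type and Becn1 heterozygote in different colours. Points are ratios of summed counts, horizontal lines are 95% counting intervals, and dashed lines mark 1.5-fold. Col8a1, Col3a1 and Col14a1 lie to the right at 2.16 to 4.74, and 11 chains lie to the left of the dashed line in both libraries.

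Stromal cells grouped by their own Kera level showed where between these classes each chain changed. Col8a1 fell as Kera climbed. It stood at 419 and 342 CPM in cells with no Kera UMI and 254 and 172 CPM above 0 to 500 CPM of Kera. From 1000 to 2000 it stood at 59.7 and 60.9 CPM. At 8000 and above it was at 0 in both libraries, in 20 and 37 cells with 237479 and 303958 UMIs in total. That depth cannot tell 0 from a low level. Col3a1 stood at 3624 and 1522 CPM in cells without Kera, at 388 and 251 CPM from 1000 to 2000 and at 71.6 and 112 CPM at 8000 and above. Col5a1 climbed from 271 and 214 CPM without Kera to 1621 and 1379 CPM at 8000 and above, and Col6a1 from 1099 and 997 CPM to 3802 and 3102 CPM. Col9a1 peaked at 4000 to 8000 CPM of Kera, with 203 and 214 CPM. The share of UMIs taken by all chains was 3.98% and 3.07% in cells without Kera and 6.31% and 5.93% at 4000 to 8000. The groups held between 7 and 266 wild-type and between 34 and 509 heterozygote cells, and the 7 wild-type cells at 500 to 1000 give wide intervals.

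**Figure D3:**
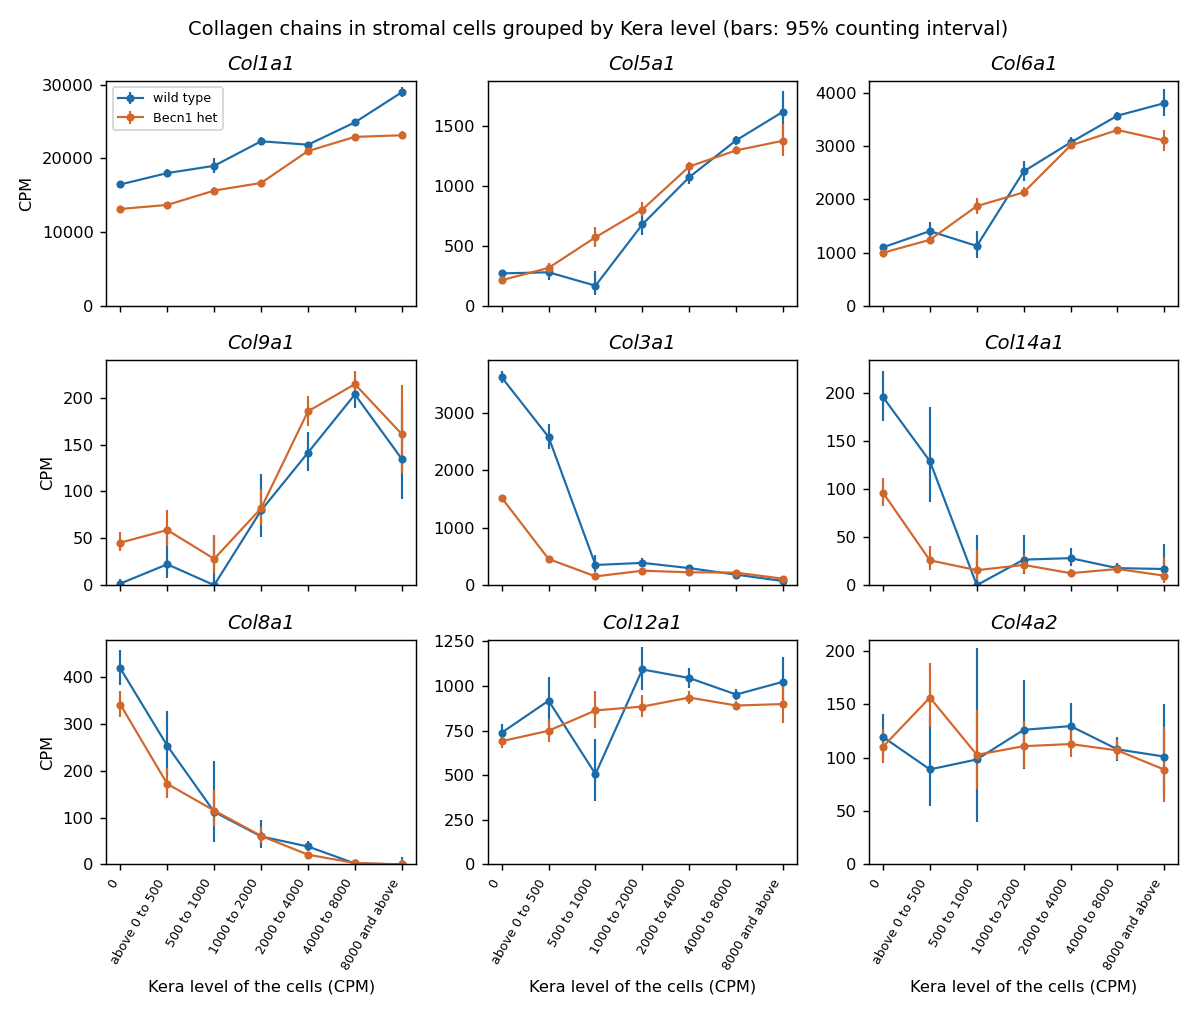
Level in CPM (vertical axes) of 9 collagen chains in stromal cells grouped by their Kera level in CPM (horizontal axes), 1 panel per chain, with wild type and Becn1 heterozygote as separate lines. Points are summed counts of the cells in a group and bars 95% counting intervals. Col8a1 declines from 419 and 342 CPM as Kera climbs, and Col5a1 and Col6a1 do the reverse. Its last points, at 0, rest on 20 and 37 cells and cannot be told from a low level.

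Collagen levels were uneven within Kera-low stroma, and whether its cells form separate groups or a gradient was not tested. With a split chosen after the values were seen, 60 of 146 (41.1%, 33.0% to 49.5%) wild-type and 79 of 364 (21.7%, 17.6% to 26.3%) heterozygote Kera-low cells had at least 1000 CPM of Col3a1. Those cells had 386 and 320 CPM of Col14a1, against 29.1 and 12.3 CPM in the other Kera-low cells. Thy1 and Cd34, surface proteins found on many fibroblasts, stood at 542 and 291 CPM and at 750 and 521 CPM, against 21.0 to 45.4 CPM in the others. The reverse held for collagen VIII: Col8a1 stood at 113 and 184 CPM in Col3a1-rich and 565 and 294 CPM in Col3a1-poor cells, and Col8a2 at 64.8 and 80.4 against 382 and 286 CPM. Col12a1 stood at 279 and 235 against 1087 and 836 CPM, and Col1a1 at 12087 and 9822 against 20170 and 14433 CPM. Col23a1, a transmembrane collagen named here after its values were seen, stood at 74.8 and 32.5 CPM in Col3a1-rich and 13.98 and 19.3 CPM in Col3a1-poor cells.

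A split that does not use any collagen, also chosen after the values were seen, gave similar levels. Thy1 and Cd34 were already higher in the Col3a1-rich cells of the same libraries. This split therefore reads the same association from the other side and is no separate support. Cells with at least 2 UMIs of Thy1 and Cd34 together numbered 61 (41.8%) and 77 (21.2%). They held 7133 and 4648 CPM of Col3a1 against 522 and 276 CPM in the others, and 383 and 288 CPM of Col14a1 against 26.0 and 18.9 CPM. They held 43.9 and 119 CPM of Col8a1 against 622 and 310 CPM, and 304 and 310 CPM of Col12a1 against 1081 and 821 CPM. The median UMI count was 9622 and 6308 in these cells and 9510 and 6906 in the others, so depth was similar on both sides. Krt12 stood at 1746 and 1599 CPM in these cells against 931 and 1303 CPM in the others, and Fos, a gene of the dissociation response, at 5029 and 4209 against 3918 and 3133 CPM. Over all Kera-low cells thinned to 5000 UMIs, Col3a1 had a Spearman correlation of 0.68 and 0.56 with Col14a1 and of −0.36 and −0.17 with Col8a1, over 146 and 364 cells of a library. Other cell types were checked in Kera-low stroma: the 5 pericyte markers summed to 195 and 154 CPM against 92.4 and 71.9 CPM in Kera-high stroma, with Myh11 at 0. The 5 leukocyte markers summed to 295 and 56.0 CPM against 36.2 and 31.4 CPM, with Ptprc at 0, and a single wild-type cell passed 5000 CPM of Cd74. The 2 tendon markers summed to 393 and 298 CPM against 226 and 155 CPM. The 4 genes of the dissociation response summed to 7556 and 5609 CPM against 4077 and 3185 CPM. Their part in the collagen differences was not tested.

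The corneal endothelial cells carried the collagens of basement membrane and of Descemet's membrane. Of 24 chains with a mean of at least 20 CPM, 9 were past 1.5-fold higher than in Kera-high stroma in both libraries: all 6 collagen IV chains, both collagen VIII chains and Col11a2. Among all 5288 genes 33.1% were higher by that rule, beside a median log2 ratio of 0.41 and 0.39 over all genes. Lower in both libraries were 13 chains, where 9.76% of all genes were. The median log2 ratio over the chains was −2.21 and −2.06. It stayed at −2.21 in the wild type with the 2 chains that had no UMI there put at 3 UMIs. Col4a3, Col4a4, Col4a6, Col8a1 and Col11a2 were under 20 CPM in Kera-high stroma of both libraries and entered only through endothelium. Col7a1, Col9a1 and Col13a1 were under 20 CPM in endothelium of both libraries and entered only through stroma. The filter thus fixed the direction in which these chains could count. Collagen IV chains made up 40.3% and 35.9% of the collagen UMIs of these cells and short-chain collagens 31.9% and 26.3%, against 0.383% and 0.414%, and 0.346% and 0.325%, in Kera-high stroma. Other measures moved with this comparison: the median mitochondrial share was 3.13% and 3.52% in endothelium against 1.92% in Kera-high stroma of both libraries, the dissociation genes summed to 6977 and 5081 against 4077 and 3185 CPM, and the pericyte markers to 183 and 177 against 92.4 and 71.9 CPM. Their part in the collagen ratios was not tested. Another scaling of the sums (TMM) lowered every ratio of this comparison by 0.41 and 0.40 and left the same 9 and 13 chains past the limit.

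Col4a3 and Col4a4, whose starts lie 71 bases apart in the gap printed above, had among the largest ratios. Col4a3 stood at 1086 (977 to 1204) and 1080 (1003 to 1161) CPM in endothelium and at 1.52 and 4.20 CPM in Kera-high stroma, a log2 ratio of 9.40 (8.49 to 10.70) and 7.99 (7.52 to 8.53). Col4a4 stood at 1215 (1099 to 1339) and 1210 (1129 to 1296) CPM against 5.69 and 4.32 CPM, a log2 ratio of 7.72 and 8.11. These chains are known to assemble with the product of Col4a5 into the collagen IV network of mature basement membranes. Col4a3 was counted in all 11 and all 34 endothelial cells, and in 100% and 97.1% of them at 5000 UMIs per cell. In corneal basal cells it was counted in 0.247% and 0.625%, and at 5000 UMIs in 0% (interval up to 0.455%) and 0.139%, with median depths of 26374 and 18869 UMIs in endothelium and 17753 and 12053 in basal cells. The lowest endothelial cell had 176 and 132 CPM of Col4a3, the median cell 1052 and 1084 CPM and the highest 1830 and 4283 CPM. The ratio of Col4a3 to Col4a4 UMIs was 0.894 (0.773 to 1.03) and 0.892 (0.807 to 0.987).

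The other collagen IV pairs were high as well. Col4a5 stood at 331 and 334 CPM and Col4a6 at 162 and 174 CPM, log2 ratios of 4.07 and 3.76 and of 7.05 and 7.46, and 2.04 and 1.92 UMIs of Col4a5 were counted per UMI of Col4a6. Col4a1 and Col4a2, the chains of nearly every basement membrane, stood at 496 and 463 CPM and at 683 and 695 CPM, with smaller log2 ratios of 2.42 and 2.39 and of 2.59 and 2.68. Col8a2, in which changes are known to cause human corneal endothelial dystrophy, had the highest level of any chain in this class: 2114 (1961 to 2276) and 1898 (1796 to 2004) CPM, a log2 ratio of 3.42 and 3.51. Col8a1 stood at 1029 and 1010 CPM, a log2 ratio of 6.19 and 6.07. The ratio of Col8a2 to Col8a1 was 2.06 and 1.88, and Col8a2 was the higher of the pair in 11 of 11 and 28 of 34 cells. Col11a2 stood at 30.1 and 39.6 CPM against 8.54 and 5.84 CPM, from 10 and 27 UMIs. Its wild-type log2 ratio of 1.87 was −0.41 in cells thinned to 5000 UMIs. Col25a1 at 9.02 and 13.2 CPM and Col9a2 at 12.03 and 2.93 CPM were also highest here, from 2 to 9 UMIs.

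**Figure D4:**
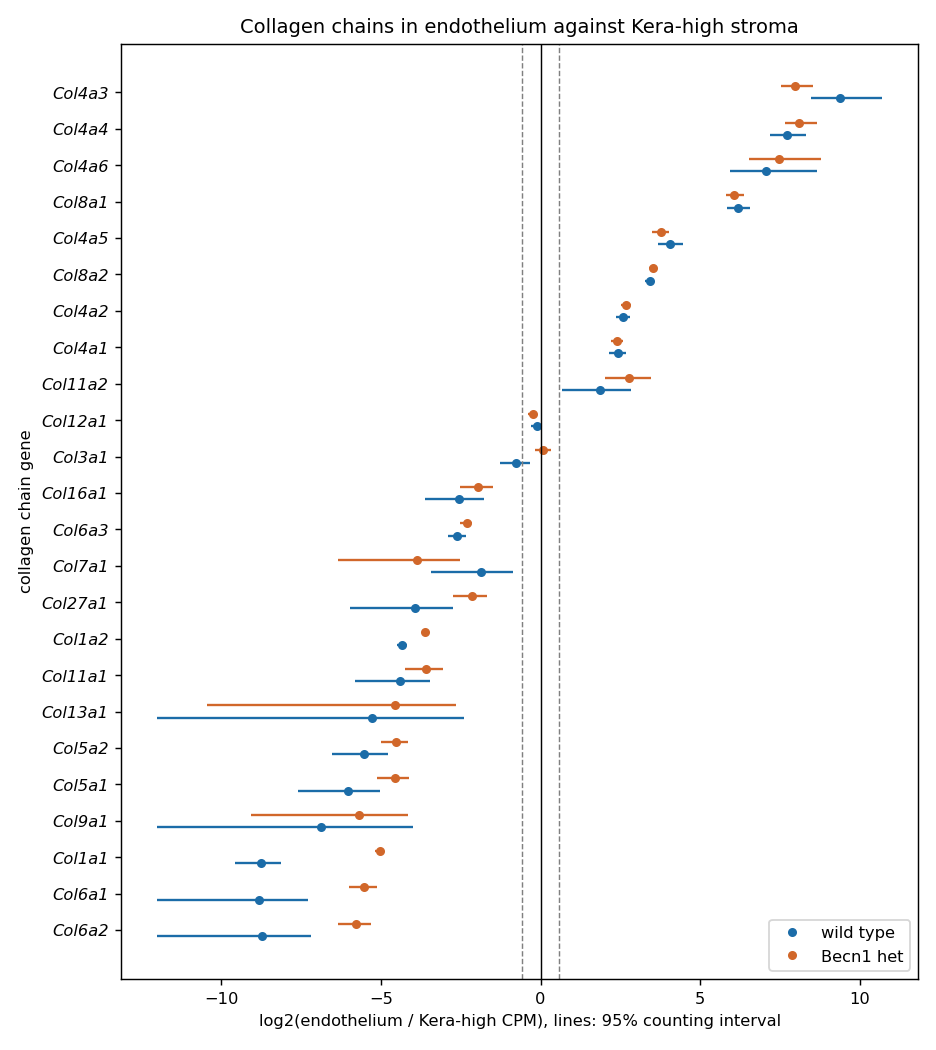
Log2 ratio of endothelium over Kera-high stroma (horizontal axis) for each chain with a mean of at least 20 CPM (vertical axis), wild type and Becn1 heterozygote in different colours. Points are ratios of summed counts, lines 95% counting intervals (those that reach the left edge run on beyond it) and dashed lines 1.5-fold. Col9a1 and Col13a1 had no UMI in wild-type endothelium, so their points depend on the 0.5 added to each count. The collagen IV and VIII chains lie to the right at 2.39 to 9.40, and 13 chains lie to the left of the dashed line in both libraries.

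The chains of collagen I were at unequal levels in endothelial cells. Col1a2 stood at 1116 and 1710 CPM, 4.95% and 8.18% of its Kera-high level, while Col1a1 stood at 54.1 (32.1 to 85.6) and 659 (600 to 723) CPM, 0.224% and 3.05% of its Kera-high level. There were 20.6 (12.9 to 35.2) and 2.59 (2.32 to 2.90) UMIs of Col1a2 per UMI of Col1a1, against 0.931 and 0.966 in Kera-high stroma, and Col1a2 was the higher chain in 11 of 11 and 32 of 34 cells. A single cell held 55.6% and 56.9% of the Col1a1 UMIs of this class, and without it the level was 29.1 and 301 CPM and the heterozygote ratio of the pair 4.93. In the median cell Col1a1 had 26.5 and 92.3 CPM and Col1a2 1126 and 1177 CPM. Decorin, which marked the stroma, was present too: Dcn stood at 8.89% and 7.14% of its Kera-high level, and Lum (lumican) at 0.331% and 0.870%. The comparison of collagen partners was chosen after the values were seen.

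Collagen VI chains were unequal as well. Col6a3 stood at 319 (261 to 386) and 358 (314 to 405) CPM, while Col6a1 stood at 6.01 (0.728 to 21.7) and 65.9 (48.1 to 88.2) CPM and Col6a2 at 6.01 and 49.8 CPM. Col6a1 and Col6a2 rested on 2 UMIs each in the wild type, and 1 heterozygote cell held 51.1% of the Col6a1 UMIs. Col6a3 was higher than Col6a1 in 10 of 11 and 27 of 34 cells, whereas in Kera-high stroma it was higher in 11 of 406 and 62 of 956 cells. The log2 ratios to Kera-high stroma were −2.60 and −2.32 for Col6a3 and −8.82 (−12.19 to −7.29) and −5.53 (−6.00 to −5.12) for Col6a1. With the 1 wild-type and 3 heterozygote cells of at least 5000 CPM of Krt12 left out, an alternative added after seeing the data, the heterozygote ratio was −9.04 for Col6a1 and −7.79 for Col1a1, the latter −5.03 before. Conjunctival epithelial markers moved with the heterozygote values, at 412 CPM against 12.03 CPM in the wild type, and their part in the difference was not tested.

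Of the remaining chains, Col12a1 was the one with the smallest difference in the wild type: 902 (803 to 1010) and 761 (697 to 829) CPM, a log2 ratio of −0.12 (−0.30 to 0.04) and −0.25 (−0.38 to −0.12). With TMM scaling its ratios were −0.53 and −0.65, the latter past 1.5-fold lower. Col3a1 stood at 126 and 233 CPM, a log2 ratio of −0.77 and 0.09, the first −0.06 in cells thinned to 5000 UMIs. Col5a1 at 18.0 and 49.8 CPM, Col5a2 at 36.1 and 68.9 CPM, Col11a1 at 21.1 and 36.6 CPM, Col27a1 at 12.03 and 46.9 CPM and Col16a1 at 33.1 and 49.8 CPM were all lower, with log2 ratios from −6.03 to −1.97. Col7a1 at 18.0 and 4.40 CPM was lower too, from 6 and 3 UMIs. Col9a1 had 0 and 2 UMIs and Col13a1 0 and 1, so in the wild type Col9a1 was at least 19.8-fold lower and Col13a1 at least 6.48-fold lower, with 3 UMIs of the class total as the floor. Col14a1 had no UMI in either library, where 3 UMIs would have been 9.02 and 4.40 CPM.

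Epithelial cells had few collagen UMIs, and most of these were of stromal chains. Of 18 chains with a mean of at least 20 CPM over corneal basal cells and Kera-high stroma, 0 were higher in basal cells, where 26.1% of all 4542 genes were. All 18 were lower, where 30.1% were. Only 3 chains reached 20 CPM in basal cells of either library. The others entered through their stromal level and could not count as higher, so these counts are largely set by the filter. Col7a1 had basal over Kera-high log2 ratios of −1.21 and −1.51, and the ratios of the other 17 ran from −9.83 to −5.33. Col1a1 stood at 53.1 and 64.6 CPM in basal and 41.4 and 56.8 CPM in limbal cells, and was counted in 17.6% and 26.2% of basal and 17.4% and 24.8% of limbal cells at 5000 UMIs. Unthinned, it was counted in 53.4% and 52.5% of basal and 50.4% and 47.1% of limbal cells. Expressed as a share of the Kera-high level, 6 chains (Col1a1, Col1a2, Col5a2, Col6a1, Col6a2 and Col6a3) and the stromal proteoglycan genes Dcn, Lum and Kera all lay between 0.141% and 0.365% in both epithelial classes and both libraries. Other stromal chains lay outside this band. Col5a1 reached 0.459% in heterozygote limbal cells, and Col11a1 stood at 0.103% in wild-type basal cells. Col3a1 ran from 0.905% to 2.48% and Col16a1 from 0.969% to 1.89%. These shares use Kera-high stroma only, and the log2 ratio of Kera-low over Kera-high stroma was 3.93 and 2.32 for Col3a1. The Col3a1 share would be lower against all stromal cells. Whether RNA of stromal cells makes up the epithelial counts was not tested. The band depends on which cells are kept: the basal over Kera-high log2 ratio of Col1a1 went from −8.83 to −7.11 in the wild type with the class limits other than Kera halved, and from −8.39 to −7.37 in the heterozygote with no doublets removed. Col12a1 stood at 4.79 and 7.52 CPM in limbal and 7.99 and 7.21 CPM in basal cells, 0.486% to 0.831% of the Kera-high level. Col3a1 at 1.97 to 5.45 CPM, Col5a1 at 2.63 to 5.53 CPM, Col5a2 at 2.87 to 5.36 CPM, Col6a1 at 4.79 to 9.45 CPM, Col6a2 at 5.75 to 8.08 CPM, Col6a3 at 2.87 to 5.97 CPM and Col16a1 at 1.97 to 3.83 CPM were low in both classes. Col11a1, Col27a1, Col9a1, Col13a1, Col4a3, Col4a4 and Col8a2 reached at most 2.15 CPM there.

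A few chains stood far above that level. Col7a1, the anchoring fibril chain, stood at 31.0 (28.4 to 33.9) and 26.0 (23.8 to 28.3) CPM in basal and 19.9 (15.8 to 24.6) and 27.6 (23.0 to 32.9) CPM in limbal cells, 27.8% to 43.4% of its Kera-high level. It made up 15.4% and 11.5% of the collagen UMIs of basal and 9.88% and 11.2% of those of limbal cells. Col8a1 stood at 17.6 (15.6 to 19.7) and 12.8 (11.3 to 14.4) CPM in basal cells, 125% and 85.4% of the Kera-high level, and at 4.07 and 1.55 CPM in limbal cells. Its partner Col8a2 had 0.737 and 1.27 CPM in basal cells. Col14a1 was on the limbal side, with 13.2 (9.92 to 17.1) and 17.2 (13.6 to 21.5) CPM in limbal and 1.23 and 1.61 CPM in basal cells. Col4a5 stood at 10.5 and 7.52 CPM in limbal and 5.35 and 3.99 CPM in basal cells, and Col4a6 at 7.42 and 3.98 against 0.430 and 0.390 CPM. Col18a1, a chain of epithelial and vascular basement membranes named here after its values were seen, stood at 7.18 (4.85 to 10.3) and 5.75 (3.76 to 8.42) CPM in limbal and 0.492 and 0.682 CPM in basal cells. Its highest level was in wild-type Kera-low stroma, at 14.4 CPM, so it is not particular to limbal cells. Col4a1 and Col4a2 were at 3.83 to 9.10 CPM in limbal and 0.614 to 2.44 CPM in basal cells, under 10% of the Kera-high level.

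Between limbal and basal cells only 3 chains had a mean of at least 20 CPM. In both libraries 0 of the 3 were past 1.5-fold higher, where 6.62% of all 4217 genes were, and 0 were lower, where 6% were. Col1a1 had limbal over basal log2 ratios of −0.35 and −0.18 and Col1a2 of −0.05 and −0.01. With cells that met several class rules kept, the wild-type ratios turned to 0.98 for Col1a1 and 0.79 for Col1a2, and with no doublets removed the heterozygote ratio of Col1a2 was −0.72, so no direction is read from them. Col7a1 had −0.64 (−0.996 to −0.306) and 0.09 (−0.20 to 0.37). The limbal differences of Col14a1, Col4a6 and Col18a1 therefore concern chains under this level, and rest on 18 to 78 limbal UMIs per chain and library. The conjunctival markers, at 928 and 438 CPM in limbal against 133 and 179 CPM in basal cells, moved with these differences, and their part in them was not tested. Cells that met both epithelial rules, 45 and 102, were counted as limbal.

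**Figure D5:**
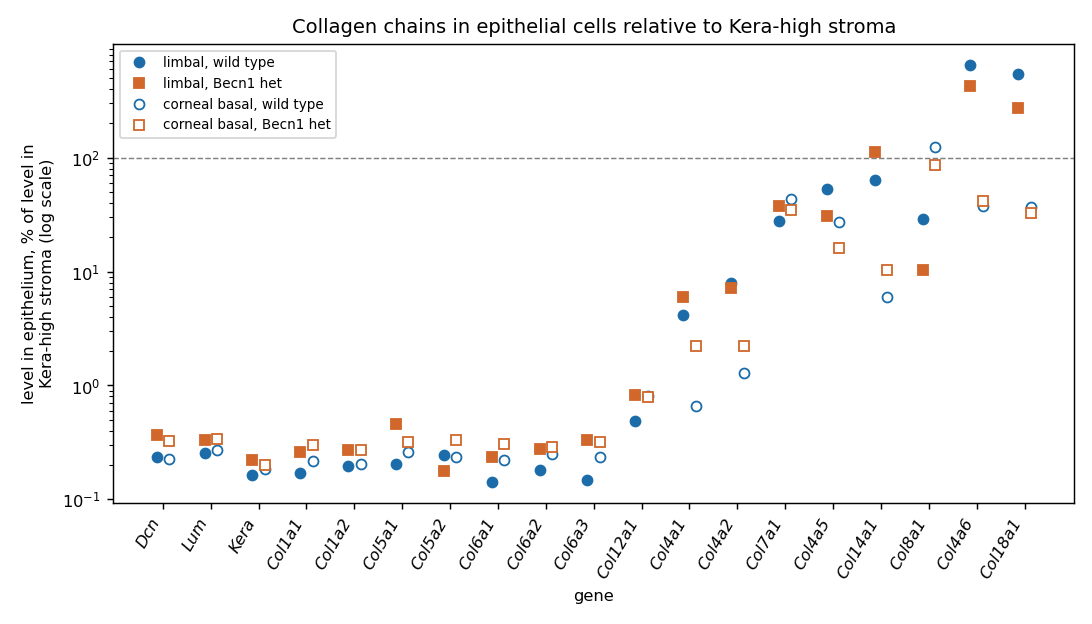
Level in limbal (filled) and corneal basal (open) cells as a percentage of the level in Kera-high stroma (vertical axis, log scale) for 3 stromal proteoglycan genes and 16 collagen chains (horizontal axis), wild type as circles and Becn1 heterozygote as squares. Points are ratios of summed counts and the dashed line is the stromal level. Dcn, Lum, Kera, Col1a1, Col1a2, Col5a2 and the collagen VI chains lie at 0.141% to 0.365%. Col5a1 lies at 0.206% to 0.459% and Col7a1 at 27.8% to 43.4%.

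Between the genotypes the collagens of Kera-high stroma hardly differed. Of 20 chains with a mean of at least 20 CPM, 0 were past 1.5-fold higher in the heterozygote, where 1.02% of 4490 genes were, and 0 were lower, where 0.78% were. The log2 ratios of heterozygote over wild type ran from −0.30 (Col5a3, 22.4 against 27.5 CPM) to 0.32 (Col4a5, 24.6 against 19.7 CPM). The ratio was below 0 for 15 of the 20, with a median of −0.10 against −0.01 over all genes. Col1a1 had −0.16 (−0.17 to −0.15), Col1a2 −0.11 (−0.12 to −0.10), Col6a2 −0.18 (−0.21 to −0.15) and Col8a2 −0.25 (−0.36 to −0.13), and these intervals leave out the variation between animals.

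In Kera-low stroma 2 of 21 chains were past 1.5-fold higher in the heterozygote, where 4.67% of 4902 genes were, and 4 were lower, where 7.28% were. Unlike the comparisons within a library, these rest on 1 contrast. Col3a1 was lower, with a log2 ratio of −1.59 (−1.65 to −1.52), and so were Col14a1 with −1.34 (−1.62 to −1.07), Col23a1 with −0.85 (−1.39 to −0.30) and Col16a1 with −0.66 (−0.83 to −0.49). With the class limits other than Kera doubled the ratio of Col23a1 was −0.28, and with them halved that of Col16a1 was −0.57, neither past the limit. The cells with at least 2 UMIs of Thy1 and Cd34 moved with the first 3 of these, at 41.8% of wild-type and 21.2% of heterozygote Kera-low cells. Within those cells Col3a1 stood at 7133 and 4648 CPM, and within the others at 522 and 276 CPM. The limit of 2 UMIs was not adjusted for depth, and Kera-low cells had medians of 9569.5 and 6695 UMIs. The part of depth in the 2 shares was not tested. Col9a1 was higher, with 3.19 (2.20 to 4.63), from UMIs in 4 of 146 and 49 of 364 cells, and with the Kera limit at 2000 CPM the ratio was 1.63. Col7a1 was higher with 1.83 (1.13 to 2.69), and was 0.70 in cells thinned to 5000 UMIs. Kera itself stood at 66.4 and 131 CPM in Kera-low stroma, and cells near the Kera limit were more frequent in the heterozygote as given above. Whether these differences come with the genotype, the animal or the mix of cells taken from each eye cannot be told apart.

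In endothelium the chains that mark these cells stood at similar levels in both libraries. The log2 ratio of heterozygote over wild type was −0.01 (−0.19 to 0.18) for Col4a3, −0.01 (−0.18 to 0.17) for Col4a4, −0.03 (−0.22 to 0.16) for Col8a1 and −0.16 (−0.29 to −0.02) for Col8a2, and −0.10 to 0.10 for the other collagen IV chains, of which Col4a6 had the widest interval (−0.37 to 0.59). Of 21 chains with a mean of at least 20 CPM, 9 were past 1.5-fold higher in the heterozygote, where 10.7% of 5804 genes were, and 0 were lower, where 12.6% were. All 9 were fibril-forming or collagen VI chains, with 3.57 for Col1a1, 3.15 for Col6a1, 2.75 for Col6a2 and 0.61 for Col1a2, and these ratios rest on few cells. Col6a3 had 0.16 and Col12a1 −0.25. Without the Krt12-rich cells the ratio was 0.80 for Col1a1, −0.46 for Col6a1, −0.10 for Col5a2 and 0.17 for Col1a2. In epithelium Col1a1 had ratios of 0.45 in limbal and 0.28 in basal cells and Col1a2 of 0.34 and 0.30, and none of these directions was stable. With the class limits other than Kera halved they were −0.83 and −1.24 for Col1a1 and −0.75 and −1.17 for Col1a2. Keeping cells that met several class rules gave −0.77 and −0.56 for Col1a1 and Col1a2 in limbal cells, and removing no doublets gave 1.05 and 1.09 in basal cells. Dcn, a stromal transcript, stood at 66.6 and 106 CPM in limbal and 64.8 and 93.8 CPM in basal cells, and its part in these ratios was not tested. Col7a1 had 0.47 (0.06 to 0.89) in limbal and −0.26 (−0.44 to −0.08) in basal cells.

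The genes that modify, fold, cut and crosslink collagen chains were counted from a list of 31, of which 19 act in the endoplasmic reticulum, 7 on propeptides and 5 in crosslinking. In Kera-low stroma 3 of 25 measured genes were higher than in Kera-high stroma in both libraries and 3 lower, against the 11.2% and 5.44% of all genes given above. Pcolce2, an enhancer of propeptide cleavage, was raised most, with 255 and 245 CPM against 41.0 and 36.0 CPM and log2 ratios of 2.63 and 2.77. Loxl2, a crosslinking enzyme, had 1.204 and 1.17 and the prolyl hydroxylase subunit P4ha3 1.57 and 0.79. Colgalt2, a collagen galactosyltransferase, had −5.32 and −2.01, and Plod1, a lysyl hydroxylase, −2.73 and −2.33 with 93.1 and 120 CPM against 621 and 606 CPM.

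In endothelium 4 of 25 were higher than in Kera-high stroma and 12 lower, against 33.1% and 9.76% of all genes. Loxl2 stood at 259 and 198 CPM against 27.7 and 23.4 CPM, log2 ratios of 3.23 and 3.08, and the lysyl hydroxylase Plod2 at 66.2 and 65.9 CPM against 19.7 and 17.2 CPM. Serpinh1, the collagen chaperone Hsp47, was lower at 280 and 371 CPM against 2118 and 1908 CPM, log2 ratios of −2.91 and −2.36. Adamts2, which removes amino-terminal propeptides, had −5.23 and −3.31, from 1 and 9 UMIs, and Lox had −3.12 and −2.51. In corneal basal cells 21 of 22 were lower than in Kera-high stroma, against 30.1% of all genes, with median log2 ratios of −4.76 and −5.02 over the 22. The 1 that was higher, against 26.1% of all genes, was P3h2, a prolyl 3-hydroxylase, at 35.1 and 33.5 CPM against 7.0 and 6.9 CPM. As for the chains, a gene under 20 CPM in 1 of the 2 classes of both libraries could count in 1 direction only. Between limbal and basal cells 1 of 7 was higher, against 6.62% of all genes: Serpinh1 with 61.8 and 51.3 CPM against 22.9 and 23.3 CPM, log2 ratios of 1.43 and 1.14. In the heterozygote 0 of 23 were higher and 0 lower in Kera-high stroma, against 1.02% and 0.78% of all genes. In Kera-low stroma 0 of 25 were higher and 2 lower, against 4.67% and 7.28%, and these were Bmp1 with −0.99 and Plod2 with −0.75. In endothelium 0 of 21 were higher and 2 lower, against 10.7% and 12.6%, and these were P3h3 with −0.86 and Crtap with −0.63.

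The other 19 chains stayed under 50 CPM in every class. Of them, 9 lay between 10 and 50 CPM in their highest class, and 10 under 10 CPM. Col19a1, a fibril-associated chain, had no UMI in any cell. Col2a1, the fibril chain of cartilage, reached 2.05 CPM at most, although Col9a1 and Col11a1, which join collagen II fibrils in cartilage, reached 189 and 476 CPM in Kera-high stroma.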

How the data were processed

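The deposited data were raw counts of UMIs per gene and cell barcode, with no normalization, in 1 table for each library. Per the submitters' processing notes the authors used Cell Ranger 2.1.1 and mm10. For the annotation release and the cell calling, the sources used here give nothing. The 2 libraries held 54913980 and 74363359 UMIs, and no sample column was left out.

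Doublets were called with Scrublet in scanpy 1.11.5 at 0.8% per 1000 barcodes (Python 3.11.15, numpy 2.4.6, scipy 1.17.1, pandas 2.3.3) and removed. Cells meeting the rules of more than 1 of stroma, epithelium and endothelium, 5 and 14, were left out. UMIs were summed over the cells of a class and divided by the class total to give CPM. Log2 ratios had 0.5 added to each count. A gene entered a count at a mean of 20 CPM or more over the groups compared, and a gene was called past 1.5-fold, in both libraries where the comparison was within a library. Intervals (95%) are exact Poisson for levels, exact conditional for ratios and exact binomial (Clopper-Pearson) for shares. UMIs limit counting error only, and a single animal per genotype leaves the spread between animals unknown. The floor for a count of 0 was 3 UMIs of the class total. Cells were thinned to 5000 UMIs for shares and correlations, and no cell was shallower. The calculations were tested on simulated data.

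Chains reaching 50 CPM in at least 1 class of 1 library were named with their values. Lower chains were given by counts and ranges, and named where a class other than stroma was highest at 10 CPM or more. From the list of collagen-processing genes at most 6 with the largest ratios were named per comparison. The chains, the gene lists and these rules were chosen with earlier results of these data known. Alternatives changed the doublet removal, the class limits, the treatment of mixed cells, the scaling, the low-value filter and the depth.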

Additional observations from a re-analysis of the deposited data

Results flagged for a closer look

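Col3a1 differed between the genotypes in opposite directions in 2 classes. Its log2 ratio of heterozygote over wild type was −1.59 in Kera-low stroma, from 4824 and 3086 UMIs, and 0.87 in endothelium, from 42 and 159 UMIs. The difference between these ratios was not tested. In cells thinned to 5000 UMIs the endothelial ratio was −0.09, so the opposite direction did not hold there.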

How the results depend on the processing

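No paired analysis was possible because each genotype had 1 library. Of 13 alternatives, 1 (leaving out stromal and endothelial cells with at least 5000 CPM of Krt12) was chosen after seeing the data. With no filter on low values, 13 of 37 chains were higher in Kera-low than Kera-high stroma, against 18.3% of all genes in that setting, and 14 of 35 in endothelium, against 43.8%. Likewise 10 of 33 were higher (15.6% of all genes) and 1 lower (6.90%) in limbal than basal cells, and 1 of 36 was higher in basal cells than in Kera-high stroma (22.8%). In the heterozygote 4 of 38 were then higher (14.3%) and 4 lower (16.3%) in Kera-high stroma, and 5 of 38 higher (19.3%) and 14 lower (22.6%) in Kera-low stroma. More chains are counted there by construction. The count of chains higher in heterozygote Kera-low stroma was 1 in cells thinned to 5000 UMIs and 0 at a minimum mean of 100 CPM. Thinning turned the wild-type endothelial ratio of Col11a2 over Kera-high stroma to −0.41. Between the genotypes in endothelium, thinning turned Col3a1 to −0.086, Col5a2 to −0.043 and Col11a1 to −0.49. Halving the class limits other than Kera turned Col5a2 to −0.062 and Col6a1 to −1.32, and leaving out the Krt12-rich cells turned them to −0.096 and −0.46. The cause of these changes was not tested. Of 200 ratios, 33 moved by over 1.5-fold with thinning, 36 with halved limits, 16 with doubled limits and 17 with no doublets removed. With cells of several rules kept 21 moved, with Krt12-rich cells left out 11, with the mean over cells 7 and with the Kera limit at 2000 CPM 5. With the other 5 settings 0 moved. Among these, the minimum mean of 100 CPM and the lack of a low-value filter change only which genes are counted and cannot move a ratio. In endothelium, with 11 and 34 cells, Col9a1 and Col13a1 had 0 to 2 UMIs.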
